A study of Mus musculus with 4 samples.

Results

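Cells take up glucose through transporters and split it into pyruvate by glycolysis, and lactate dehydrogenase turns pyruvate into lactate when flux is high or oxygen is short. In the eye the retina, the corneal epithelium and the lens are known for heavy use of this route, and the pigment epithelium passes glucose inward and lactate outward. The genes described here cover the steps from uptake to lactate: Slc2a1 (the facilitative transporter GLUT1), the hexokinases Hk1 and Hk2, the glucose phosphate isomerase Gpi1, the phosphofructokinases Pfkl and Pfkm, the aldolase Aldoa, the phosphoglycerate kinase Pgk1, and the lactate dehydrogenase subunits Ldha and Ldhb. They were chosen by symbol: every probe set whose platform annotation gives exactly 1 of these 10 symbols was taken. This found 23 of the 45101 probe sets on the array, for 9 of the 10 genes, out of 18193 genes with a probe set named for them alone. Gpi1 had no probe set named for it alone and was not analysed here, and 1 probe set that lists Hk1 among several symbols was left out.

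RNA from mouse eye tissue, labelled retina, was hybridised to 4 one-colour Affymetrix arrays. The 2 transgenic arrays came from animals whose aqueous humor, the fluid at the front of the eye, contained transgenic myocilin, a glycoprotein that cells secrete. The 2 control arrays came from animals described only as control. The question stated in the labels is what high myocilin around the retina does. Strain, age, the promoter of the transgene and whether animals were pooled are not given here. The labels describe the second control array as a technical repeat of the first, so the control group counted as 1 sample, and no label assigns the 2 transgenic arrays to different animals. All p-values therefore measure only a spread that may be technical.

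The trimmed mean signal was 150 on every array. For Gapdh, itself a glycolytic gene, the signal at the 3′ end over that at the 5′ end, which tracks how intact the RNA was, stood at 0.686 and 0.655 on the transgenic arrays, against 0.691 and 0.671 on the control arrays. The defining genes of rods, the main photoreceptors of a mouse retina, gave little signal: of 10 with a probe set, 2 were bright enough to be tested (a signal over about 29.98), and their summed signal was 340.19 and 257.6 on the transgenic arrays, against 306.8 and 341.61 on the control arrays. All 13 skeletal muscle genes were bright enough to be tested, and their summed signals were 25374 and 25413 on the transgenic arrays, against 16606 and 16857 on the control arrays. Of 12 pigment epithelium and melanocyte genes 11 were bright enough to be tested, and the sums were 48291 and 52317 on the transgenic arrays, against 40485 and 40486 on the control arrays. All 8 corneal and surface epithelium genes were tested, with sums of 56526 and 61347 on the transgenic arrays, against 56597 and 55939 on the control arrays. For 7 fibroblast genes the sums were 27555 and 27774, against 21805 and 20708. For 7 neuron genes, of which 6 were tested, they were 760 and 822, against 1059 and 1024. For 11 lens genes, of which 8 were tested, they were 3481 and 3453, against 2566 and 2501. Muscle, pigmented tissue, corneal epithelium and lens also use the genes described here. In bulk tissue more cells of a type and more RNA per cell cannot be told apart, and the part of these tissues in the glycolytic values was not tested.

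No glycolytic gene passed the test for a difference between transgenic and control tissue. Most signals were slightly higher on the transgenic arrays, with a median log2 change of 0.15 over the brightest probe sets of the 9 genes, against −0.02 over all 27022 probe sets tested. Changes are of log2(signal + 16), transgenic minus control. Of the 23 probe sets, all of which were bright enough to be tested, 0 had a limma adjusted p under 0.05, and the lowest was 0.48. Over all probe sets tested 0.0777% passed. At an unadjusted p under 0.05 there were 6 of the 23, all higher, from Slc2a1, Aldoa, Pgk1 and Ldhb, against 4.14% higher and 2.92% lower over all probe sets tested. Probe sets of 1 gene read the same transcripts and are not independent.

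**Figure D1:**
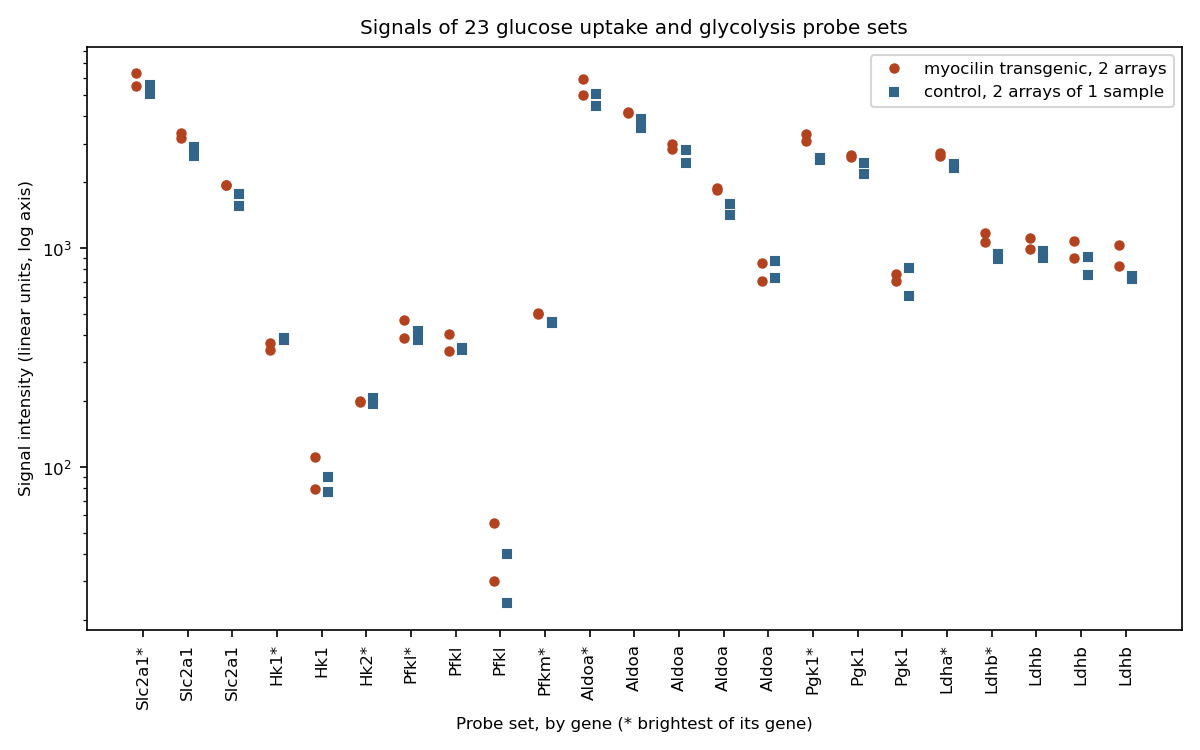
Signal intensity (linear units, log axis) of the 23 probe sets, grouped by gene along the horizontal axis, with the 2 transgenic arrays as circles and the 2 arrays of the control sample as squares. The transgenic circles lie above both control squares for 12 probe sets, below both for 1, and overlap with them for 10.

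Slc2a1 carries glucose into the cell without an energy cost. Its brightest probe set gave signals of 5493 and 6284 on the transgenic arrays, against 5087 and 5544 on the control arrays. The groups overlapped, since the first transgenic array lay below the second control array. The log2 change was 0.15 ± 0.10 (SE; limma adjusted p = 0.859), and the control arrays, which share 1 sample, themselves differed by 0.12. The change was 0.0047 after quantile normalization and 0.05 without the second transgenic array. Its 2 dimmer probe sets did not overlap between groups. One had 3171 and 3367 on the transgenic arrays, against 2627 and 2903 on the control arrays, a log2 change of 0.24 ± 0.10 (limma adjusted p = 0.651). The other had 1939 and 1944 on the transgenic arrays, against 1565 and 1759 on the control arrays, a log2 change of 0.22 ± 0.10 (limma adjusted p = 0.7). All 3 thus lay above 0, and none passed.

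The hexokinases, which trap glucose as glucose 6-phosphate, had log2 changes on both sides of 0. Hk1, the widely expressed form, had 343 and 367 on the transgenic arrays, against 381 and 387 on the control arrays. Both transgenic arrays lay below both control arrays, the only such case among the 23 probe sets, with a log2 change of −0.11 ± 0.14 (SE; limma adjusted p = 0.952). A dimmer Hk1 probe set had 111 and 79.1 on the transgenic arrays, against 89.6 and 76.6 on the control arrays, and overlapped at 0.15 ± 0.26 (limma adjusted p = 0.966). Hk2, the insulin-responsive form of muscle and fat, had 199 and 198 on the transgenic arrays, against 194 and 207 on the control arrays. The transgenic values lay within the control range, and the log2 change was −0.01 ± 0.17 (limma adjusted p = 0.995).

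The phosphofructokinases catalyse the committed step of glycolysis. Pfkm, the muscle form, had 497 and 505 on the transgenic arrays, against 454 and 459 on the control arrays. The arrays did not overlap, but the log2 change of 0.13 ± 0.13 (SE) did not pass (limma adjusted p = 0.919). Pfkl, the liver form, had 388 and 471 on the transgenic arrays, against 416 and 379 on the control arrays. Its groups overlapped on this and on both dimmer probe sets, with log2 changes of 0.10 ± 0.15, 0.09 ± 0.16 and 0.28 ± 0.38 (limma adjusted p between 0.952 and 0.963). The last of these probe sets had 30.1 and 55.2 on the transgenic arrays, against 23.8 and 39.8 on the control arrays.

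Aldoa, the aldolase of muscle and most other tissues, splits fructose bisphosphate into its 3-carbon products. Its brightest probe set had 5015 and 5947 on the transgenic arrays, against 4459 and 5039 on the control arrays, with overlap and a log2 change of 0.20 ± 0.11 (SE; limma adjusted p = 0.787). On 3 of its 4 other probe sets both transgenic arrays lay above both control arrays, at 0.17 ± 0.09, 0.15 ± 0.10 and 0.32 ± 0.10. The largest of these had 1887 and 1845 on the transgenic arrays, against 1412 and 1583 on the control arrays (limma adjusted p = 0.503). The dimmest overlapped at −0.04 ± 0.14, with 706 and 857 on the transgenic arrays, against 733 and 870 on the control arrays. All 5 Aldoa probe sets carry the suffix x, which marks probes that may also bind related sequences, so they may share signal with other transcripts. The second control array was above the first on all 5, by 0.13 to 0.24 on the log2 scale.

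Pgk1, which makes the first ATP of the pathway, gave the lowest adjusted p of the 23. Its brightest probe set had 3317 and 3074 on the transgenic arrays, against 2579 and 2533 on the control arrays. The groups did not overlap, with control arrays that differed by 0.03, and the log2 change was 0.32 ± 0.10 (SE; limma adjusted p = 0.48). A second probe set had 2676 and 2619 on the transgenic arrays, against 2171 and 2449 on the control arrays, at 0.20 ± 0.10 (limma adjusted p = 0.748). Another, with the suffix x, had 762 and 711 on the transgenic arrays, against 810 and 604 on the control arrays, at 0.07 ± 0.12. There the control arrays differed by 0.41, more than any group difference among the 23. The brightest probe set also carries the suffix x.

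The lactate dehydrogenase subunits close the route. Ldha, the subunit that prevails in muscle, had 2711 and 2649 on the transgenic arrays, against 2434 and 2317 on the control arrays. The arrays did not overlap, with a log2 change of 0.17 ± 0.10 (SE; limma adjusted p = 0.797). Ldhb, the subunit that prevails in heart, had 1172 and 1063 on the transgenic arrays, against 944 and 888 on the control arrays, at 0.28 ± 0.12 (limma adjusted p = 0.655). On its other 3 probe sets the log2 changes were 0.16 ± 0.12, 0.24 ± 0.13 and 0.33 ± 0.14, with the groups apart at 0.16 and 0.33. The last is the largest change of all 23, with 1033 and 829 on the transgenic arrays, against 747 and 722 on the control arrays (limma adjusted p = 0.671). The first transgenic array exceeded the second on all 4 Ldhb probe sets.

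**Figure D2:**
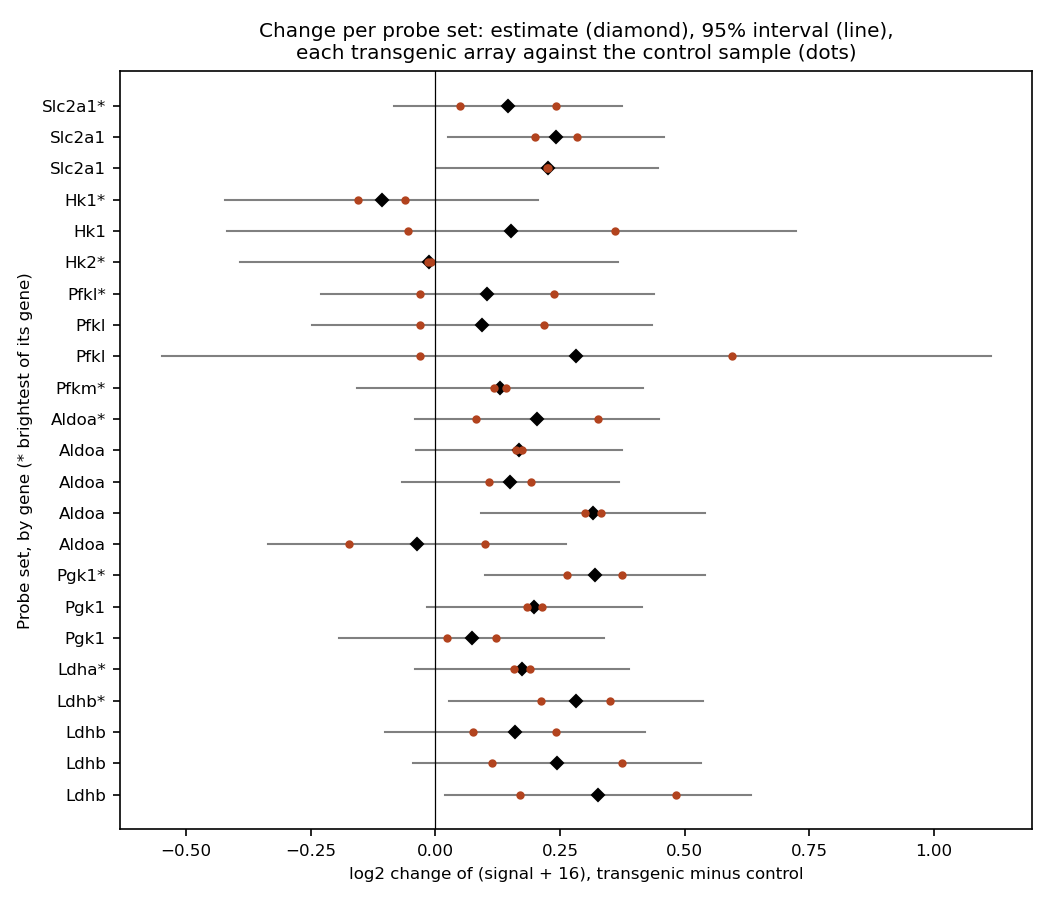
log2 change of (signal + 16), transgenic minus control, for each of the 23 probe sets, with the estimate as a diamond, the 95% interval from limma as a line, and each transgenic array against the control sample as a dot. Estimates run from −0.11 (Hk1) to 0.33 (Ldhb), and most intervals cross 0.

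The 95% intervals hold only the spread between the transgenic arrays, moderated across probe sets, and no spread between control arrays or control animals. For the brightest probe sets of the 9 genes, the upper 95% limits of the log2 change lay between 0.21 and 0.54, the highest corresponding to 1.45-fold, and the lowest lower limit was −0.42, or 0.746-fold. These limits come from limma with 1 residual degree of freedom and lean on the spread shared across probe sets. Between isozymes, on the brightest probe sets, the log2 change of Ldha minus that of Ldhb was −0.11. It was −0.16 and −0.06 on the transgenic arrays, with control arrays within 0.01 of their mean. The value depends on the probe set, since those of Ldhb ran from 0.16 to 0.33, against 0.17 for Ldha. With a gene's probe sets averaged, the difference was −0.08. On the brightest probe sets Hk2 minus Hk1 was 0.10 and Pfkm minus Pfkl 0.03. The Pfkm and Pfkl difference had opposite signs on the transgenic arrays, at 0.15 and −0.10.

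The members' counts and medians are set here beside those of probe sets with a mean signal over 1000 and of dimmer ones. Both transgenic arrays exceeded both control arrays for 12 of the 23 probe sets, against 21.1% of all probe sets tested, and lay below both for 1, against 23.6%. Among the 1979 probe sets tested with a mean signal over 1000, 51.5% were higher in this sense and the median log2 change was 0.10. Of the 23, 11 were that bright, from 5 genes, with 9 higher and a median log2 change of 0.20. Of the 12 dimmer ones, 3 were higher, with a median log2 change of 0.12, against 18.7% higher and a median of −0.03 over the 25043 dimmer probe sets tested. The members' medians thus lay above those of all probe sets in both ranges, a difference that was not tested. The split is coarse, and the share higher rose with signal within the dimmer range. It was 29.1% with a median of −0.0019 at signals of 508 to 753, and 37.5% with a median of 0.04 at 753 to 1404. At signals of 1404 and over, where most of the 11 bright members lay, it was 57% with a median of 0.11. The dimmer members were not matched in signal to the dimmer probe sets. After quantile normalization, which removes differences in the spread of signals between arrays, the median was 0.09 for the 9 genes, 0.11 for the 11 bright probe sets, against 0.01 for all bright probe sets tested, and 0.13 for the 12 dimmer ones, against −0.00 for all dimmer ones. The 27 array control probe sets named for bacterial transcripts that can be spiked in ahead of labelling had a median log2 change of 0.24. The 18 named for hybridisation controls had −0.00. Both sets were taken by name alone, without a check of their signals. What part the shift of the 27 has in the glycolytic values was not tested. Array control probe sets for Gapdh had log2 changes of 0.22 to 0.24, and those for Actb, an actin gene, 0.16 to 0.19. These were not tested either.

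**Figure D3:**
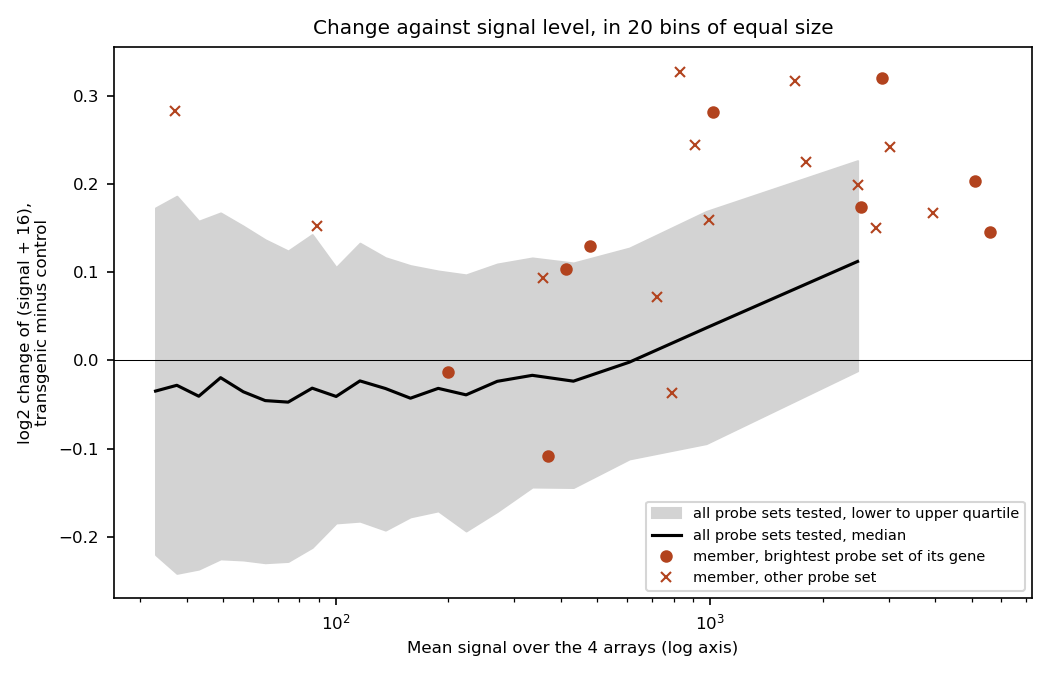
log2 change of (signal + 16), transgenic minus control, against the mean signal over the 4 arrays (log axis), with all probe sets tested in 20 bins as a median line and a quartile band, and the 23 member probe sets as circles (brightest of a gene) and crosses (others). The median line turns upward at high signals, where 11 of the 23 lie over a signal of 1000.

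Other genes that handle glucose were counted together with hypoxia factors and targets. Of these, 102 were named by a probe set, 19 of them in the hypoxia list, and 84 were bright enough to be tested. None passed the limma threshold (0 of 84), against 0.0777% of all probe sets tested. At an unadjusted limma p under 0.05 there were 8 higher and 1 lower of the 84, against 4.14% higher and 2.92% lower over all probe sets tested. The 1 lower was in the hypoxia list. The median log2 change of the 102 was 0.04, with −0.12 for the 19 of the hypoxia list alone. Of 22 other glycolytic enzyme genes, 14 lay above 0, with a median of 0.10. Both transgenic arrays lay above both control arrays for 9 of them and below for 4, against 21.1% and 23.6% of all probe sets tested. Some of the 9 had a mean signal over 1000, where 51.5% of probe sets tested were higher in this sense. Of the 22, 18 were tested, and the counts include those below the filter. Aldoc, the brain-type aldolase, Eno3, the muscle enolase, and Pfkfb4, which sets the level of a phosphofructokinase activator, were named after their values were seen. Aldoc had 1793 and 1772 on the transgenic arrays, against 1359 and 1250 on the control arrays, a log2 change of 0.45 ± 0.10 (SE; limma adjusted p = 0.285). Eno3 had 1268 and 1168 on the transgenic arrays, against 811 and 950 on the control arrays, at 0.46 ± 0.11 (limma adjusted p = 0.307). Pfkfb4 was lower on both transgenic arrays without passing, with 112 and 91.9 on the transgenic arrays, against 138 and 155 on the control arrays, at −0.47 ± 0.22 (limma adjusted p = 0.732). In the muscle list 3 of 13 genes passed the limma threshold, all higher, against 0.0777% of all probe sets tested, and 12 of 13 lay above 0 with a median of 0.47. Its part in these values was not tested. The largest changes of the enzyme list were those of Eno4 at −0.98, below the filter, Gapdhs at −0.63 ± 0.49 and Hkdc1 at 0.57 ± 0.33.

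Lactate and pyruvate transporters had the highest median of these lists, 0.31 over 7 genes. Of the 5 tested, all had both transgenic arrays above both control arrays, against 21.1% of all probe sets tested and 51.5% of those with a signal over 1000. At an unadjusted limma p under 0.05 there were 4 of the 5, against 4.14% higher over all probe sets tested, but none passed after adjustment. Slc16a8, the monocarboxylate transporter typical of pigment epithelium, had 440 and 408 on the transgenic arrays, against 283 and 313 on the control arrays, at 0.49 ± 0.14 (SE; limma adjusted p = 0.422). Mpc1, a subunit of the mitochondrial pyruvate carrier, had 1562 and 1491 on the transgenic arrays, against 1187 and 1205 on the control arrays, at 0.35 ± 0.11 (limma adjusted p = 0.463). Slc16a1, a widely expressed monocarboxylate transporter, had 841 and 837 on the transgenic arrays, against 613 and 740 on the control arrays, at 0.31 ± 0.12 (limma adjusted p = 0.612). In the pigment epithelium and melanocyte list 2 of 11 tested genes passed the limma threshold, both higher, against 0.0777% of all probe sets tested, and all 12 lay above 0 with a median of 0.46. Its part in these values was not tested. The median of the transporter list was 0.22 after quantile normalization.

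The 5 remaining lists of glucose metabolism genes had medians between −0.08 and 0.08. Among 12 other glucose transporters the median was 0.08. Slc2a4, the insulin-responsive transporter of muscle and fat, stood at 0.37 ± 0.21 (SE; limma adjusted p = 0.788), with 138 and 146 on the transgenic arrays, against 102 and 110 on the control arrays. Slc2a12 stood at 0.33 ± 0.18 (limma adjusted p = 0.788), and Slc2a9, below the filter, at 0.39. The pyruvate dehydrogenase genes had a median of −0.02, with Pdpr at −0.33 ± 0.20, Pdk4 at −0.32 ± 0.31 and Pdk2 at −0.22 ± 0.19. Pentose phosphate genes had −0.04, with Rpia at −0.28 ± 0.15, Pgd at −0.23 ± 0.12 and Tktl1, below the filter, at −0.33. Glycogen genes had 0.06, with Gys1, the muscle glycogen synthase, at 0.60 ± 0.34, and with Gys2 at 0.53 and Phkg1 at −0.40, both below the filter. The groups overlapped for Gys1, with 44.6 and 56.4 on the transgenic arrays, against 48.1 and 13.9 on the control arrays. Gluconeogenesis and polyol genes had −0.08, with Pcx, the pyruvate carboxylase, at −0.34 ± 0.17, and with Pck1 at 0.35 and G6pc at −0.34, both below the filter. Of the other marker lists, lens genes had a median of 0.84, red blood cell genes 0.72, fibroblast genes 0.28, corneal epithelium genes 0.03, leukocyte genes −0.08 and neuron genes −0.34. The limma threshold was passed by 3 of 8 tested lens genes and 1 of 7 fibroblast genes, all higher, against 0.0777% of all probe sets tested. With the filter at the 60th percentile, 0 lens genes and 1 fibroblast gene passed. The remaining lists had none past it. After quantile normalization the corneal epithelium median turned to −0.13, with 1 of 8 genes above 0, against 5 of 8 without it.

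**Figure D4:**
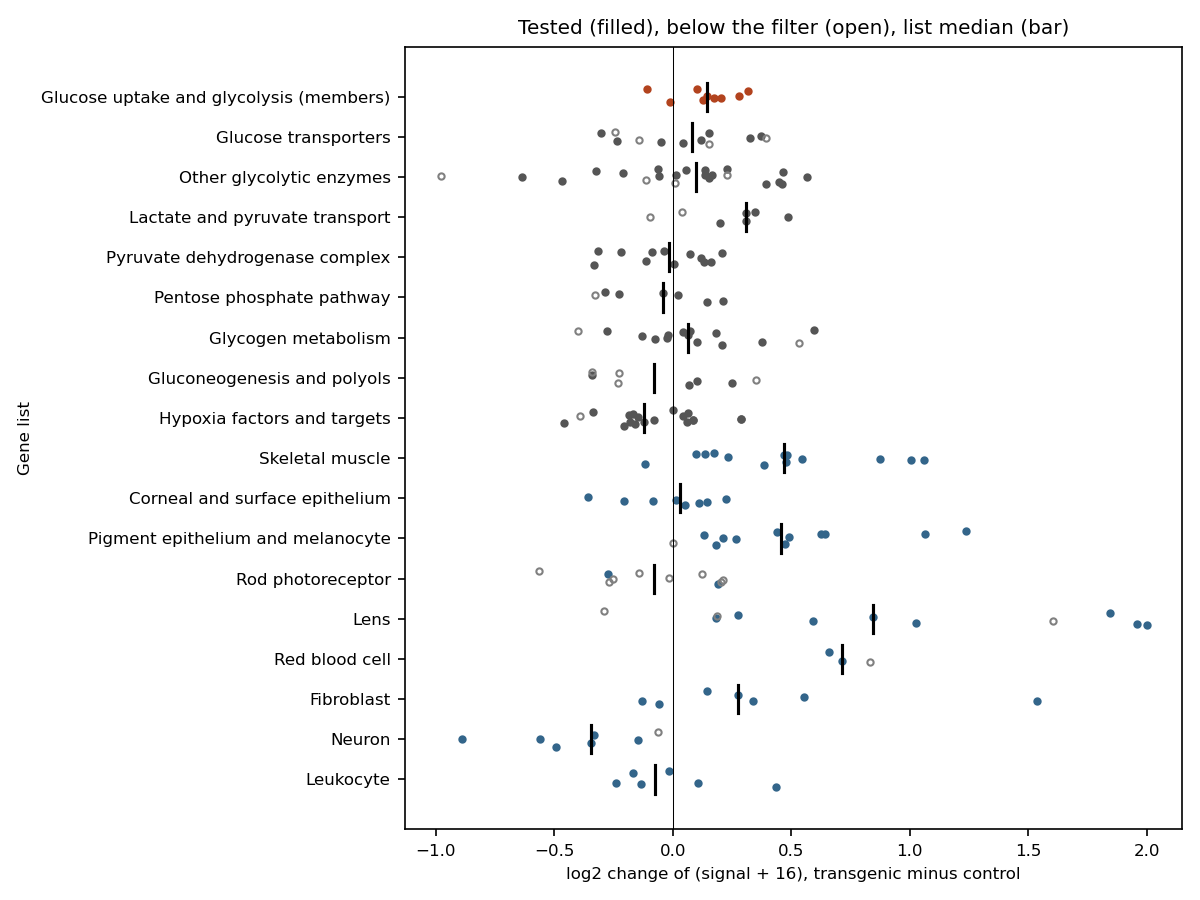
log2 change of (signal + 16), transgenic minus control, of the brightest probe set of each gene, by gene list, with tested genes filled, genes below the filter open and the list median as a bar. Members had a median of 0.15 and lactate and pyruvate transporters 0.31, beside 0.47 for skeletal muscle and 0.46 for pigmented cells.

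Several of the genes described are known targets of the hypoxia-inducible factors. Of 19 other genes in the list of these factors and their targets, 8 lay above 0, with a median log2 change of −0.12, and 0 of the 18 tested passed the limma threshold, with 1, lower, at an unadjusted p under 0.05. Both transgenic arrays lay above both control arrays for 4 and below for 7, against 21.1% and 23.6% of all probe sets tested. The difference between this list and the glycolytic genes was not tested. Ddit4, an inhibitor of growth signalling, had 390 and 358 on the transgenic arrays, against 503 and 536 on the control arrays, at −0.46 ± 0.14 (SE; limma adjusted p = 0.452). Car9, a carbonic anhydrase, stood at −0.33 ± 0.23 (limma adjusted p = 0.849) and Ankrd37, below the filter, at −0.39. The 4 with both transgenic arrays higher were named after their values were seen. Among them Vhl, which marks the factors for breakdown, stood at 0.29 ± 0.17 (limma adjusted p = 0.803), Bnip3, a mitophagy receptor, at 0.29 ± 0.17 (limma adjusted p = 0.805) and P4ha1, a collagen prolyl hydroxylase subunit, at 0.08 ± 0.17 (limma adjusted p = 0.971). Hif1a, the oxygen-sensitive factor itself, had 3257 and 3377 on the transgenic arrays, against 3162 and 3094 on the control arrays, at 0.08 ± 0.10 (limma adjusted p = 0.935).

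The stretches just before the transcription starts of Ldha, Pgk1 and Slc2a1 are shown because these are known hypoxia targets and all had changes above 0. Each is 250 bases on the plus strand of GRCm38.p6, 5′ to 3′, from RefSeq. They lie at chr7:46845554-46845803 for Ldha, chrX:106186850-106187099 for Pgk1 and chr4:119108495-119108744 for Slc2a1, each ending at the base before an annotated start of the gene. Capitals mark matches on either strand to the hypoxia response core, ACGTG or GCGTG, and to the E-box CACGTG, which holds ACGTG on both strands.
Ldha: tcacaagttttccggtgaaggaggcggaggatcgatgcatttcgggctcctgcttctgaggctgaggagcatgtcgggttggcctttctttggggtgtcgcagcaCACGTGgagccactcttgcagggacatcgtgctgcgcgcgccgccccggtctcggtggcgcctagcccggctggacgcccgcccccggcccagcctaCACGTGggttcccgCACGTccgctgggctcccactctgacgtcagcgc
Pgk1: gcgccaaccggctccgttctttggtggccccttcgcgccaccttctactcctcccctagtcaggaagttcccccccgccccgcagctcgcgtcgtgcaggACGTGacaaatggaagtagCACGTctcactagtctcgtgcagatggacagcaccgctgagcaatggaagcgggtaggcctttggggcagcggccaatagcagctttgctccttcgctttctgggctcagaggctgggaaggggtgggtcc
Slc2a1: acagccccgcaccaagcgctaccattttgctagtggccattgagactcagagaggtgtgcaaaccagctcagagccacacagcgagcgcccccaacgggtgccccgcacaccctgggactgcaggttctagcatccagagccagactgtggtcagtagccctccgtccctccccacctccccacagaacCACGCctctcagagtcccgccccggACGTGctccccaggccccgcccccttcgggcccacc

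In the Ldha stretch the E-box CACGTG starts 145 and 48 bases before the transcription start, and a further ACGTG lies on the minus strand 34 bases before it. RefSeq lists a second Ldha start downstream, whose window holds 0 copies of ACGTG or CACGTG and 2 of GCGTG. In Pgk1, ACGTG starts 150 bases before the start on the plus strand and 131 bases before it on the minus strand. In Slc2a1, ACGTG starts 36 bases and GCGTG, on the minus strand, 61 bases before the start. In windows that run from 250 bases before to 50 bases after a start, ACGTG occurred in 19.6% of the 32851 promoters in the RefSeq table, GCGTG in 32.4% and CACGTG in 7.15%. All 10 genes were matched, with 17 promoters, some of which overlap. ACGTG occurred in 9 of the 17 (7 of the 10 genes), GCGTG in 8 (6 genes) and CACGTG in 2, those of Ldha and Pfkm. Hk2, at −0.01, also holds ACGTG, 226 and 52 bases before its start. Hk1, at −0.11, holds 2 copies of ACGTG and 3 of GCGTG in the window of 1 start, and 0 of either in that of its other start. A match describes the letters only and does not show binding.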

How the data were processed

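The authors deposited 1 linear signal intensity per probe set and array. The software, settings and genome build behind these intensities are not given in the sources used here, nor are detection calls. Intensities were used as deposited and transformed as log2(signal + 16), which understates changes of dim probe sets. After 64 array control probe sets were left out, those whose log2 values averaged over the 40th percentile, a signal of about 29.98, were tested (27022). Control arrays were averaged as 1 sample. Differences were fitted across all probe sets by limma (version 3.58.1, R version 4.3.3) with moderated variances that follow a trend in intensity (1 residual and 10.3 prior degrees of freedom), two-sided, with Benjamini-Hochberg adjustment and a threshold of 0.05. The spread of the single control sample was thereby taken to equal that between transgenic arrays. Signal served to filter probe sets, to choose a gene's brightest one and to split probe sets at a mean signal of 1000. Levels of different genes are not compared. With only 4 arrays, their number limits the precision.

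Names came from the platform annotation, and no symbol changed when updated by gene identifier. The brightest probe set, by its mean over the arrays, stood for a gene. The members and lists were chosen with earlier results of these data known. Named genes were all members and, from each pathway list, those past the threshold and the 3 with the largest absolute change; others are said to be named after their values were seen. Alternatives covered normalization, pseudocounts of 1 and 64, the filter, the treatment of controls, the replicate number as a block, moderation, averaging a gene's probe sets, and leaving out each array.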

Additional observations from a re-analysis of the deposited data

How the results depend on the processing

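No glycolytic gene passed on its brightest probe set under any alternative but the replicate block. That fit takes all 4 arrays as separate samples and the replicate number as a block; it called 3 of the 9 genes and 1740 probe sets over all. It treats technical repeats as samples, the labels do not pair the arrays, and the deviations of same-numbered arrays correlated at 0.0955 over probe sets. The count over all probe sets was 21, with 39 after quantile normalization, 56 after median centring, 135 with 4 separate arrays, and 0 in limma without the filter or without the intensity trend (2181 and 1059 at an unadjusted p under 0.05). Without 1 control array it was 14 or 33, and without a transgenic array no residual degree of freedom was left for a test. The median change of the 9 genes stayed above 0 in all settings, between 0.08 without the second transgenic array and 0.21 without the first. The other glucose metabolism genes, taken with the hypoxia list, had a median of 0.0054 without the first transgenic array. Without the second it was 0.054, and these values were its range with 1 array left out. After quantile normalization 4 of the 9 genes moved by over 1.5 times, Slc2a1 to 0.0047. Hk2 turned to 0.02 after quantile normalization and after median centring. Without the second control array Hk2 turned to 0.03, 1 Aldoa probe set to 0.08 and 1 Pgk1 probe set to −0.13. Without the first transgenic array the dimmer Hk1 probe set turned to −0.06, a Pfkl probe set to −0.03 and the Aldoa one to 0.10, and without the second both other Pfkl probe sets turned to −0.03. Averaging a gene's probe sets turned Hk2 minus Hk1 to −0.03 and Pfkm minus Pfkl to −0.03. Pfkm minus Pfkl was −0.05 without the first control array and −0.10 without the first transgenic array. No test was run without a transgenic array or for the isozyme differences. Of the other turned values none was called in either direction, and the cause was not tested.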
